A study of Homo sapiens with 18 samples.

Results

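The keratins of urothelial cells were examined in RNA-seq data from 2 human bladder cancer cell lines, UM-UC-3 and T24. The set of 10 genes was fixed by name and covers simple keratins (KRT7, KRT8, KRT18, KRT19), basal and squamous keratins (KRT5, KRT6A, KRT17), luminal keratins (KRT13, KRT20) and KRT80. Of these, 9 had a row among the 39496 genes of the table, and no row carried the name KRT20, which was therefore not analysed here. Both cell lines carry the genotype label WT and are established lines, so each stands for a single tumour. Cells received a control siRNA (siNC), or siACAT1-1 or siACAT1-2, which target ACAT1, the mitochondrial acetyl-CoA acetyltransferase. This gave 6 groups of 3 libraries, which the labels call biological replicates and number 1 to 3. Of the 9 keratins with a row, 6 passed the filter on low counts that kept 20144 genes for testing (KRT7, KRT8, KRT17, KRT18, KRT19 and KRT80), and KRT5, KRT6A and KRT13 did not.

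Keratins are the intermediate filament proteins of epithelial cells. A filament forms from pairs of an acidic type I keratin (here KRT13, KRT17, KRT18, KRT19 and KRT20) and a neutral to basic type II keratin (here KRT5, KRT6A, KRT7, KRT8 and KRT80). KRT8 and KRT18 are the common pair of simple epithelia, and KRT7 and KRT19 join them in urothelium. KRT5 marks basal urothelial cells, KRT13 intermediate cells and KRT20 the superficial umbrella cells, while KRT6A and KRT17 are known from squamous and basal-like bladder tumours. For this reason keratin patterns are used to describe the differentiation state of bladder cancers.

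The libraries held 25163490 to 34417230 counted reads, with a median of 28613163. ACAT1 was lower in every siACAT1 library than in every siNC library of its line, at 46 ± 1.68 RPKM (reads scaled to exon length and to library total, mean ± SD, n = 3) in UM-UC-3 siNC cells against 3.05 ± 0.703 and 2.16 ± 0.544 with siACAT1-1 and siACAT1-2. In T24 cells it was 16.2 ± 1.4 RPKM with siNC and 1.29 ± 0.149 and 0.792 ± 0.122 RPKM with the siRNAs. Both lines are labelled as bladder transitional cell cancer cells. Of 13 urothelial and epithelial surface markers, such as uroplakins, claudins and E-cadherin, 0 reached 1 RPKM in any UM-UC-3 library and only EPCAM did in T24 cells. Their summed level was 0.986 to 1.88 RPKM in UM-UC-3 and 1.42 to 4.04 RPKM in T24 libraries, and CDH1 (E-cadherin) had 0 reads in all 6 siNC libraries. Summed markers of fibroblasts reached at most 2.49 RPKM, of endothelium 0.113 and of smooth muscle 0.6, and of the leukocyte markers only CD68 had more than 10 reads in any library. With CD68, the summed leukocyte markers stood at 126 to 216 RPKM in UM-UC-3 and 15.7 to 169 RPKM in T24 libraries.

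KRT18 and KRT8 were the most abundant keratins of UM-UC-3 cells. KRT18 was 161, 127 and 138 RPKM in the 3 UM-UC-3 siNC libraries (142 ± 17.2) and 255, 159 and 293 RPKM in T24 (236 ± 68.7), which ranked it 352nd and 227th of the 39496 genes by mean RPKM. Only the lowest T24 library fell within the range of the UM-UC-3 libraries. KRT8, its partner, was 45.2, 36 and 40.5 RPKM in UM-UC-3 (40.6 ± 4.64) and 311, 117 and 324 RPKM in T24 (250 ± 116), with no overlap between the lines. In UM-UC-3 minus T24, KRT8 was lower by a log2 fold change of -2.60 (SE 0.47, 95% interval -3.51 to -1.68, edgeR quasi-likelihood adjusted p = 2.7e-04), that is 6.05-fold. The difference in KRT18 was -0.70 (SE 0.31, interval -1.30 to -0.09), and its adjusted p of 0.0774 missed the threshold of 0.05. KRT18 passed the test when any 1 of the 3 T24 libraries numbered 2 was left out, for example at -0.97 without T24 siNC replicate 2 (edgeR adjusted p = 0.0209). In libraries from bulk cells, fewer cells with a transcript and less transcript per cell cannot be told apart.

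KRT7 and KRT19, the other simple keratins, were also lower in UM-UC-3 cells. KRT7, a type II keratin of ducts and urothelium, was 3.72, 2.27 and 6.38 RPKM in UM-UC-3 (4.12 ± 2.09) and 371, 140 and 316 RPKM in T24 cells (275 ± 121). The lowest T24 library was far above the highest UM-UC-3 library, and the log2 fold change was -6.05 (SE 0.69, interval -7.40 to -4.70, edgeR adjusted p = 2.6e-06), 66.1-fold. KRT19, a type I keratin and the smallest of the family, had 9, 6 and 4 reads in UM-UC-3 and 1972, 326 and 2080 reads in T24 siNC libraries. Its level was 0.0907 ± 0.0416 RPKM in UM-UC-3 and 20.4 ± 13.9 RPKM in T24, where the libraries stood at 24.5, 4.95 and 31.8 RPKM. The log2 fold change of KRT19 was -7.78 (SE 1.05, interval -9.84 to -5.71, edgeR adjusted p = 1.7e-05), 219-fold. KRT19 passed the filter through its T24 libraries alone, which favoured a lower value in UM-UC-3. All calls of KRT7, KRT8 and KRT19 held in each of 18 fits that left out 1 library.

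**Figure D1:**
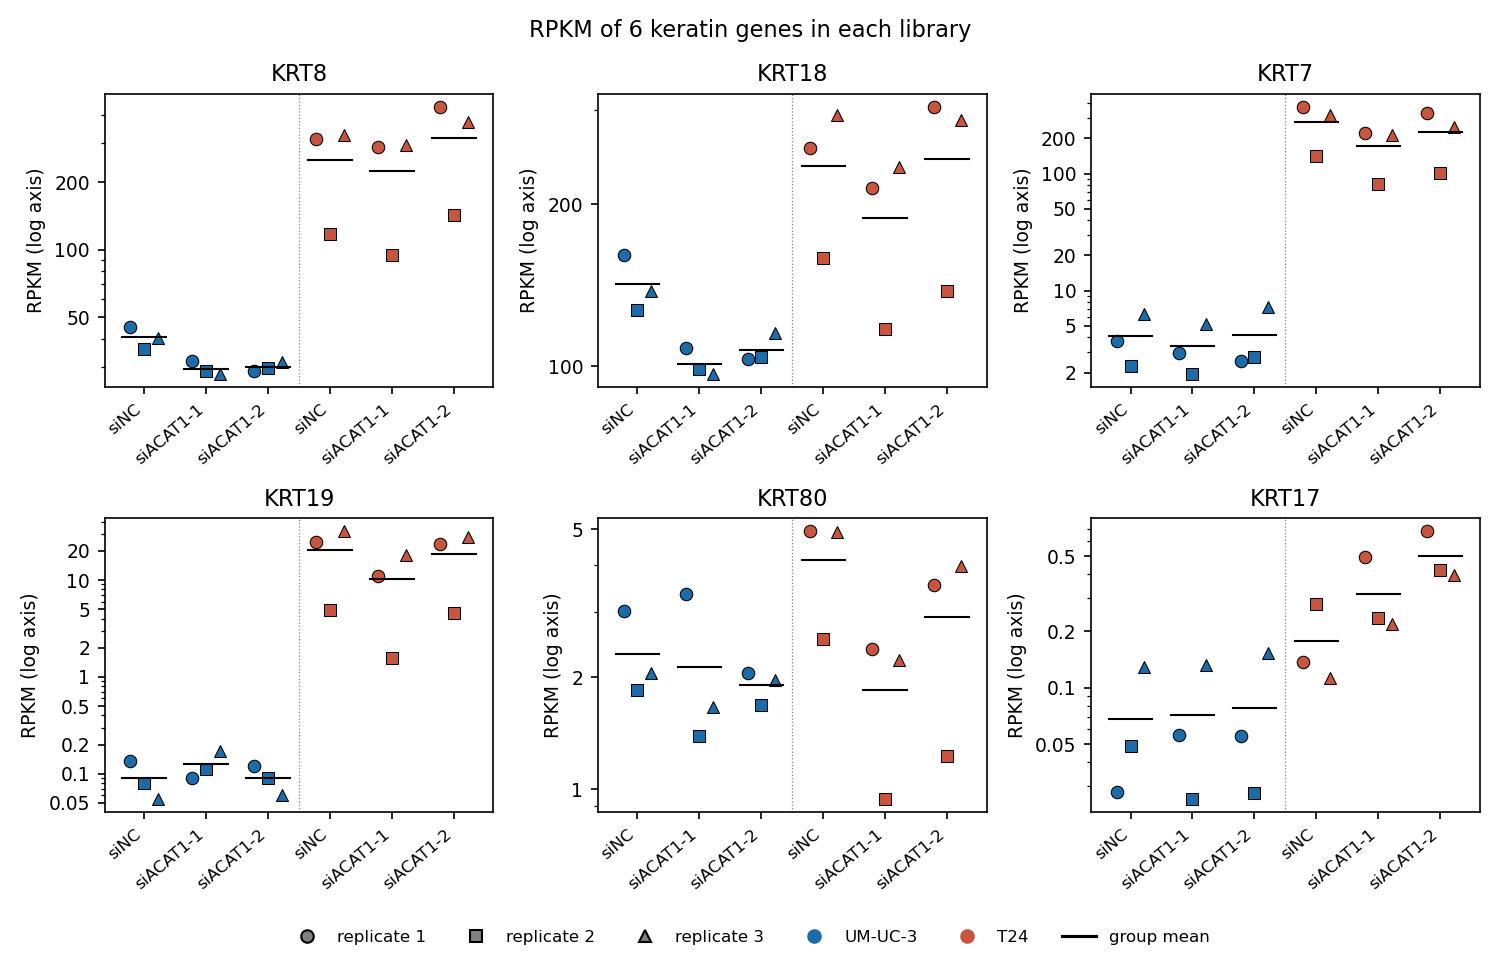
RPKM (log axis) of KRT8, KRT18, KRT7, KRT19, KRT80 and KRT17 in every library, with groups on the horizontal axis, UM-UC-3 in blue, T24 in red, marker shape for the replicate number (circle 1, square 2, triangle 3) and a line for the group mean. KRT7, KRT8 and KRT19 do not overlap between the lines, and the T24 square lies lowest for all genes shown but KRT17.

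KRT80, a type II keratin linked to differentiating epithelia and cell junctions, was low in both lines. It was 3.01, 1.85 and 2.05 RPKM in UM-UC-3 siNC cells (2.3 ± 0.619) and 4.93, 2.53 and 4.91 RPKM in T24 cells (4.12 ± 1.38). The groups overlapped and the difference of -0.81 (SE 0.45, interval -1.68 to 0.06) did not pass the test (edgeR adjusted p = 0.154).

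The basal, squamous and intermediate-cell keratins had few reads in either line. KRT17 had 2, 4 and 10 reads in UM-UC-3 and 12, 20 and 8 reads in T24 siNC libraries, a log2 fold change of -1.29 (SE 0.69, interval -2.64 to 0.06, edgeR adjusted p = 0.141). KRT13 had 0 to 13 reads per library over all 18 libraries, 59 in the UM-UC-3 and 19 in the T24 libraries, and was at 0 in 3 libraries. KRT5, the basal partner of KRT14, had 18 reads in all 18 libraries together, at most 4 in a library, and was at 0 in 10. KRT6A had 2 reads in total and was at 0 in 17 libraries. At this depth 3 reads correspond to 0.0203 to 0.0278 RPKM for KRT5 and 0.0298 to 0.0407 RPKM for KRT6A. A count of 0 still allows this level, for counting error only and with independent reads. It allows a higher level if mates of a pair are counted separately.

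Of the 6 keratins tested, 3 were called in the comparison of the lines with siNC, and all 3 were lower in UM-UC-3. Over all genes tested 44.3% were called, 22.3% lower. The median log2 fold change was -1.94 for the 6 keratins and 0.03 for all genes. The count filter asked for 10 reads, in a library of median size, in any 3 libraries. Here and below, a line reached the filter where all 3 libraries of a group had this level. KRT17 and KRT19 reached it in T24 cells alone, which favoured a lower value in UM-UC-3. Of the 4 keratins that reached it in both lines 2 were called (KRT7 and KRT8), with a median of -1.70, against 41% called, 20.8% lower and a median of 0.02 for all genes that reached it in both lines. Without the 3 T24 libraries numbered 2, KRT18 and KRT80 passed as well, with KRT18 at -0.96 (edgeR adjusted p = 5.2e-05) and KRT80 at -1.12 (0.00543). Without the 3 UM-UC-3 libraries numbered 3, KRT17 joined the 3 calls at -2.08 (edgeR adjusted p = 0.0319). KRT7, KRT8 and KRT19 did not overlap between the 3 siNC libraries of each line, as was the case for 53.2% of all genes tested. They did not overlap between the 9 libraries of each line either (28.9% of all genes), while the other 6 keratins did.

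**Figure D2:**
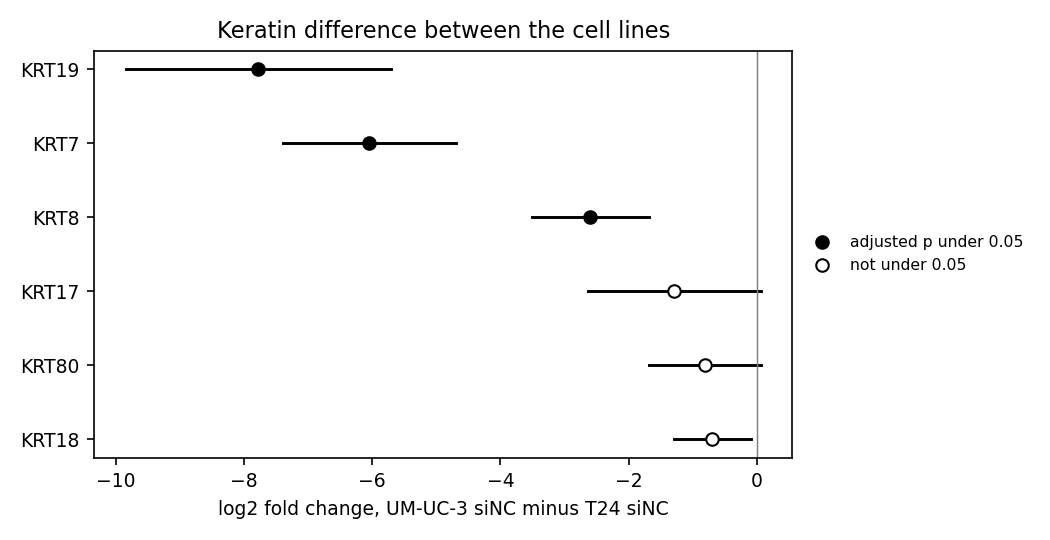
Log2 fold change with 95% interval of each tested keratin in UM-UC-3 minus T24 with siNC, from the fit without a block, with the point filled where the adjusted p is under 0.05. KRT19, KRT7 and KRT8 lie below 0 and are filled, while KRT17, KRT80 and KRT18 are open.

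The lines differed in the composition of their keratin transcripts. Summed over the 47 keratin rows, the level was 206 ± 23.4 RPKM in UM-UC-3 and 807 ± 310 RPKM in T24 siNC cells. In UM-UC-3, 68.7% of this sum was KRT18, 19.7% KRT8, 3.54% KRT15 and 1.99% KRT7. In T24, KRT7 took 33.6%, KRT18 30.3%, KRT8 30.1% and KRT19 2.27%. The keratins of the set together took 91.5% in UM-UC-3 and 96.9% in T24 siNC cells. Rows other than those named were not broken down, so these shares are not a full ranking. The ratio of KRT18 to KRT8 RPKM was 3.4 to 3.64 in the 9 UM-UC-3 libraries and 0.699 to 1.36 in the 9 T24 libraries. Among the keratins of the set, the summed level of type II over type I was 0.331 in UM-UC-3 and 2.01 in T24 siNC cells.

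**Figure D3:**
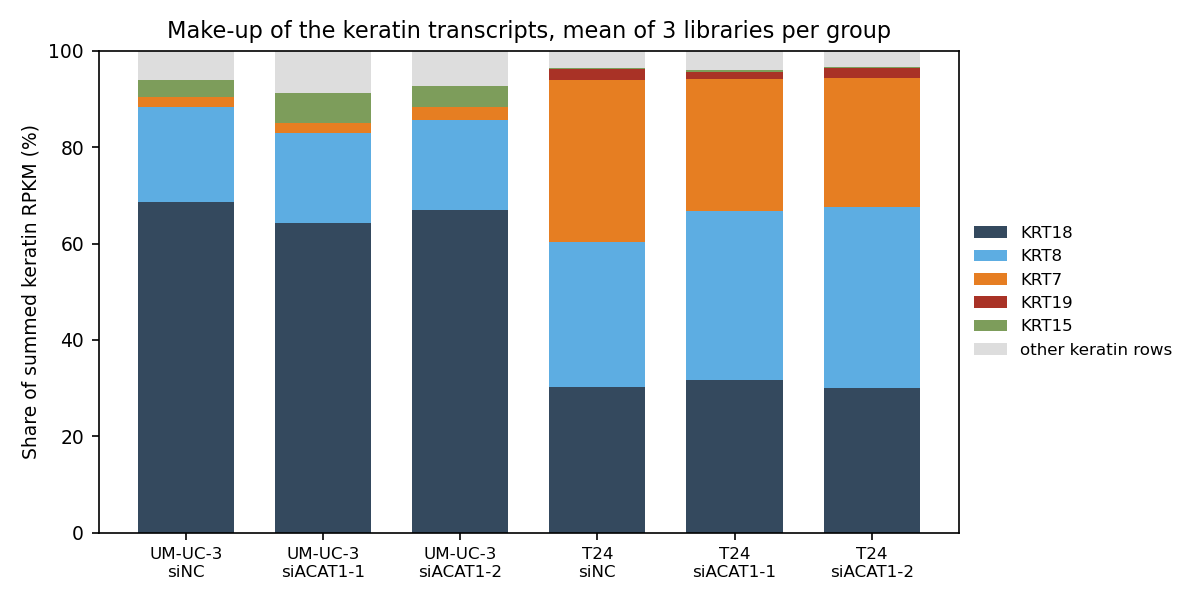
Share of the summed keratin RPKM (percent) taken by KRT18, KRT8, KRT7, KRT19, KRT15 and all other keratins in each of the 6 groups. KRT18 takes most of the bar in UM-UC-3, while KRT7, KRT8 and KRT18 share most of it in T24.

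All genes of the set lie in 2 clusters. On GRCh38, chromosome 12 holds KRT80 (chr12:52168996-52192000, minus strand), KRT7 (chr12:52232520-52252186, plus), KRT6A (chr12:52487174-52493257, minus), KRT5 (chr12:52514575-52520687, minus), KRT8 (chr12:52897187-52949954, minus) and KRT18 (chr12:52948871-52952901, plus), which is the only type I gene there. Chromosome 17 holds KRT13 (chr17:41500981-41505705), KRT19 (chr17:41523617-41528308) and KRT17 (chr17:41619437-41624842), all on the minus strand. The exons of KRT8 and KRT18 overlap on opposite strands by 525 bases, 7.63% of the exon bases of KRT8 and 16.3% of those of KRT18, and the strand setting of the counting is not given in the sources used here. Exons of KRT7 overlap those of the antisense gene RP3-416H24.1 by 282 bases (6.89%), which had 119 to 16726 reads and a log2 fold change of -5.60 between the lines. Without a known strand setting, reads of such pairs cannot be told apart. The 44 KRT8 pseudogene rows together held reads equal to 5.35 to 11.4% of the KRT8 count in UM-UC-3 and 2.19 to 4.71% in T24 libraries, and the 61 KRT18 pseudogene rows 0.43 to 1.04% of the KRT18 count. Adding the pseudogene counts to KRT8 and KRT18 changed no call of a keratin of the set.

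The other keratins differed between the lines in both directions. Of 10 tested, 5 were higher and 2 lower in UM-UC-3, against 44.3% of all genes called (22.3% lower). Of these 7, 3 reached the count filter only in the line where they were higher, which favoured their direction. Of the 4 tested that reached it in both lines, 1 was lower and 1 higher, against 41% of all such genes called and 20.8% lower. The remaining calls were type II keratins higher in UM-UC-3 that reached it in neither line, so the filter may have favoured their direction too. Of 21 other type II keratins, 6 were tested and 3 were called, all higher in UM-UC-3, among them KRT79 with 29, 17 and 35 reads against 1, 0 and 0, and KRT83, a hair keratin, with 20, 6 and 39 against 2, 2 and 4. Of 23 other type I keratins, 17 had a row and all 4 that were tested were called, 2 in each direction. KRT15, a basal type I keratin, was 7.29 ± 1.41 RPKM in UM-UC-3 and 0.946 ± 0.59 RPKM in T24 cells, higher by 2.99 on the log2 scale (SE 0.62, edgeR adjusted p = 8.7e-04). KRT32, another hair keratin, had 43, 56 and 42 reads in UM-UC-3 and 0 in each T24 siNC library. KRT10, of differentiated epidermis, was lower in UM-UC-3 by -1.46 on the log2 scale (edgeR adjusted p = 0.00183), and KRT34 had 0, 2 and 0 reads in UM-UC-3 against 9, 31 and 23.

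Genes that anchor keratin filaments included several with almost no reads in UM-UC-3. Of 15 anchor and desmosome genes tested, 8 were lower, 3 higher and 4 not called, with a median log2 fold change of -3.61. Over all genes tested 44.3% were called, 22.3% lower. Of the 8 lower genes 6 reached the count filter in T24 cells alone, and 1 of the 3 higher genes in UM-UC-3 alone, which fixed or favoured their direction. Of the 8 genes that reached it in both lines, 2 were lower and 2 higher, with a median of -0.12. This was near the share of all such genes, of which 41% were called and 20.8% were lower. DSP (desmoplakin), which ties keratins to desmosomes, was 0.109 RPKM in UM-UC-3 and 18.9 RPKM in T24 siNC cells, a log2 fold change of -7.39 (edgeR adjusted p = 6.0e-11). The desmosomal cadherin DSG2 was 1.2 and 15.2 RPKM (-3.61, edgeR adjusted p = 2.0e-10). EVPL (envoplakin) had 6, 4 and 4 reads against 2355, 1297 and 2408, and FAM83H, which binds keratins, 1, 0 and 0 against 526, 288 and 567. The linkers DST and PLEC were higher in UM-UC-3, by 1.13 and 0.67 on the log2 scale.

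Of 12 transcription factors known to regulate keratin genes, 7 were called, 5 lower and 2 higher in UM-UC-3, against 44.3% of all genes called and 22.3% lower. Of the 8 that reached the count filter in both lines, 3 were lower and 1 higher, against 41% of all such genes called and 20.8% lower. TFAP2C was lower by -5.19 (edgeR adjusted p = 1.8e-07), PPARG, a driver of the luminal programme, by -4.12 (2.7e-06) and KLF5 by -4.20 (2.7e-06) on the log2 scale. TP63, the basal factor, had 20, 24 and 40 reads in UM-UC-3 and 0, 2 and 0 in T24 siNC libraries. EPCAM had 1, 0 and 8 reads against 98, 192 and 92, and was 1 of the 2 surface markers called among the 7 tested, both lower. Both of these reached the count filter in T24 cells alone, which favoured a lower value in UM-UC-3. Of the 2 surface markers that reached it in both lines 0 were called. S100A2, a squamous and basal marker, was lower by -4.97 (edgeR adjusted p = 1.3e-07), 1 of 2 cornified envelope genes tested. Vimentin (VIM), the mesenchymal intermediate filament, was 268 ± 33 RPKM in UM-UC-3 and 220 ± 47 in T24 siNC cells, a difference of 0.32 that was not called (edgeR adjusted p = 0.244). It was 1 of 9 other intermediate filament genes tested, of which 3 were called, all higher in UM-UC-3. Over all genes 44.3% were called, 22.3% lower. Of the 3, 1 reached the count filter in UM-UC-3 alone, which favoured its direction. Of the 7 that reached it in both lines 2 were called, both higher, against 41% of all such genes.

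Libraries of T24 cells with the replicate number 2 stood apart for the keratins. In all 3 siRNA groups they were lower than both other libraries for KRT7 (2.63 to 3.11-fold below the mean of the other two), KRT8 (2.9 to 3.25-fold), KRT18 (1.83 to 2.33-fold), KRT19 (5.98 to 9.84-fold) and KRT80 (2.08 to 3.3-fold), but not for KRT17. The same held for 19.6% of all genes tested. CD68 was higher in these 3 libraries, with 1182, 7458 and 1002 reads in siNC replicates 1, 2 and 3, and EPCAM was highest there too, while PTPRC, CD3E and LYZ had at most 10 reads in every library; their part in the result was not tested. In UM-UC-3 cells the libraries numbered 3 were higher than both others in all siRNA groups for KRT7 (2.06 to 2.64-fold) and KRT17 (3.19 to 3.53-fold), as were 16.8% of all genes tested. Of the variance of log2 CPM within T24 cells, the replicate number took 86% for KRT7, 92% for KRT8, 87.8% for KRT18, 84.6% for KRT19 and 62.4% for KRT80, against 12.9%, 7.27%, 9.39%, 13.9% and 35% for the siRNA. In UM-UC-3 cells the siRNA took 86.1% for KRT8 and 84.6% for KRT18, and the number took 89.3% for KRT7.

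The knockdown comparisons asked whether loss of ACAT1 moved the keratins. Without a block 0 of 6 keratins were called in any of the 4 comparisons with siNC by edgeR, and 0 by DESeq2. At an unadjusted p under 0.05, edgeR gave 0 keratins in both UM-UC-3 comparisons and 1 in each T24 comparison. Over all genes tested, 0.00993% and 0.0546% were called in UM-UC-3 and 0.124% and 0.268% in T24 with siACAT1-1 and siACAT1-2. Libraries with the same number within a line deviated together from their group means, so the values with the number as a block are given beside these. The 2 comparisons of a line share its siNC libraries.

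In UM-UC-3 cells the pair KRT8 and KRT18 was lower than siNC of the same number in 6 of 6 siACAT1 libraries. KRT8 was 31.8, 28.7 and 27.8 RPKM with siACAT1-1 (29.5 ± 2.12) and 28.8, 29.5 and 31.4 RPKM with siACAT1-2 (29.9 ± 1.38), below all 3 siNC libraries. KRT18 was 108, 98.6 and 96.6 RPKM (101 ± 6.27) and 103, 104 and 115 RPKM (107 ± 6.27), again with no overlap. Over all genes tested, 12.7% did not overlap with siNC for siACAT1-1 and 12% for siACAT1-2. With the block KRT8 fell by 0.46 on the log2 scale with siACAT1-1 (SE 0.10, interval -0.66 to -0.26, edgeR adjusted p = 0.0196) and by 0.48 with siACAT1-2 (interval -0.68 to -0.28, 0.0196), 1.38-fold and 1.39-fold. KRT18 fell by 0.48 (interval -0.69 to -0.27, edgeR adjusted p = 0.0202) and by 0.44 (interval -0.65 to -0.23, 0.0449). These were 2 of 6 keratins in each comparison, both lower, against 3.06% (1.1% lower) and 1.36% (0.72% lower) of all genes tested with the block. The siACAT1-1 calls of both genes were lost without siNC replicate 1 or 3 or siACAT1-1 replicate 1 or 3, with edgeR adjusted p up to 0.157. Over all 18 fits that left out 1 library, their log2 fold changes ran from -0.55 to -0.38. The siACAT1-2 call of KRT8 was lost without siNC replicate 1 or 3 or any siACAT1-2 library (adjusted p up to 0.168), and that of KRT18 held in 4 of 18 such fits and was lost without any of the 9 UM-UC-3 libraries or any of 5 T24 libraries (adjusted p up to 0.278). Without the 3 UM-UC-3 libraries numbered 3, 0 keratins were called in either comparison with the block.

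The other keratins of UM-UC-3 cells did not pass the test with either siRNA. KRT7 was 2.93, 1.94 and 5.15 RPKM with siACAT1-1 (3.34 ± 1.64) and 2.53, 2.73 and 7.22 RPKM with siACAT1-2 (4.16 ± 2.65), within the siNC range apart from the lowest and the highest of these libraries. KRT80 was 3.35, 1.39 and 1.66 RPKM and 2.05, 1.69 and 1.97 RPKM. KRT19 stayed at 4 to 12 reads and KRT17 at 2 to 11 reads in all 9 libraries. KRT13 had 2, 5 and 4 reads with siNC, 9, 13 and 11 with siACAT1-1 and 6, 8 and 1 with siACAT1-2. Without the filter the siACAT1-1 difference of KRT13 was 1.61 on the log2 scale (edgeR adjusted p = 0.898).

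In T24 cells KRT7, KRT19 and KRT80 were lower than siNC of the same number in 6 of 6 siACAT1 libraries. KRT7 was 223, 81.1 and 215 RPKM with siACAT1-1 (173 ± 79.7) and 330, 102 and 252 RPKM with siACAT1-2 (228 ± 116). Both groups overlapped with siNC, since replicate 2 was low in each. With the block KRT7 fell by 0.68 on the log2 scale with siACAT1-1 (SE 0.13, interval -0.92 to -0.43, edgeR adjusted p = 0.00144), 1.6-fold, and was at -0.29 with siACAT1-2 (0.161). KRT19 was 11, 1.56 and 18.1 RPKM with siACAT1-1 and 23.5, 4.62 and 27.5 RPKM with siACAT1-2. It fell by 1.14 with siACAT1-1 (SE 0.16, interval -1.46 to -0.82, edgeR adjusted p = 2.2e-04), 2.2-fold, and was at -0.10 with siACAT1-2 (0.769). KRT80 was 2.38, 0.945 and 2.23 RPKM with siACAT1-1 (1.85 ± 0.788) and 3.53, 1.23 and 3.97 RPKM with siACAT1-2 (2.91 ± 1.47), with no overlap with siNC for siACAT1-1 (13.4% of all genes). It fell with both siRNAs in this fit. The size was 1.19 on the log2 scale with siACAT1-1 (SE 0.17, interval -1.53 to -0.85, edgeR adjusted p = 2.4e-04) and 0.57 with siACAT1-2 (interval -0.90 to -0.24, 0.0399). The siACAT1-1 calls of these 3 genes held in each of the 18 fits that left out 1 library, and the siACAT1-2 call of KRT80 in 11. The latter was lost without any T24 siNC library, T24 siACAT1-2 replicate 1 or 2, or UM-UC-3 siNC replicate 1 or 3 (adjusted p up to 0.176).

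For KRT8 and KRT18 the calls in T24 cells differed by siRNA, and no test compared the genes with each other. KRT8 was 288, 94.7 and 295 RPKM with siACAT1-1 (226 ± 114) and 435, 143 and 371 RPKM with siACAT1-2 (317 ± 153), lower than siNC of the same number in 3 of 6 libraries. With the block KRT8 was at -0.17 with siACAT1-1 (interval -0.37 to 0.03, edgeR adjusted p = 0.288) and rose by 0.35 with siACAT1-2 (interval 0.15 to 0.54, 0.0365), 1.27-fold. KRT18 was 215, 117 and 235 RPKM (189 ± 63.2) and 304, 138 and 287 RPKM (243 ± 91.2). It fell by 0.33 on the log2 scale with siACAT1-1 (edgeR adjusted p = 0.0454) and was at 0.03 with siACAT1-2 (interval -0.18 to 0.24). KRT17 was tested because its T24 siACAT1 libraries were high: all 3 libraries of each siRNA but 1 of 3 siNC libraries reached the count filter, which favours a higher value. It had 34, 18 and 14 reads with siACAT1-1 and 50, 30 and 32 with siACAT1-2, against 12, 20 and 8 with siNC. The siACAT1-2 libraries did not overlap with siNC (11.9% of all genes), and KRT17 rose by 1.51 with siACAT1-2 (SE 0.44, interval 0.65 to 2.36, edgeR adjusted p = 0.0351), 2.85-fold. With the block these made 4 of 6 keratins called with siACAT1-1, all lower, against 13.9% of all genes tested (7.31% lower). With siACAT1-2 they made 3 of 6, 2 higher (KRT8 and KRT17) and 1 lower (KRT80), against 8.48% of all genes. The siACAT1-2 count includes KRT17, whose higher value the filter favoured, so it cannot be compared evenly with that share. Leaving out 1 library at a time, the siACAT1-1 call of KRT18 held in 9 of 18 fits and was lost without any T24 siNC or siACAT1-1 library or any of 3 UM-UC-3 libraries (adjusted p up to 0.201). The siACAT1-2 call of KRT8 held in 8 and was lost without any T24 siNC or siACAT1-2 library, T24 siACAT1-1 replicate 1 or any of 3 UM-UC-3 libraries (adjusted p up to 0.241). That of KRT17 held in 13 and was lost without T24 siNC replicate 1 or 3 or any T24 siACAT1-2 library (adjusted p up to 0.306). Without the 3 T24 libraries numbered 2, 3 keratins were called with siACAT1-1 and 1 with siACAT1-2.

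**Figure D4:**
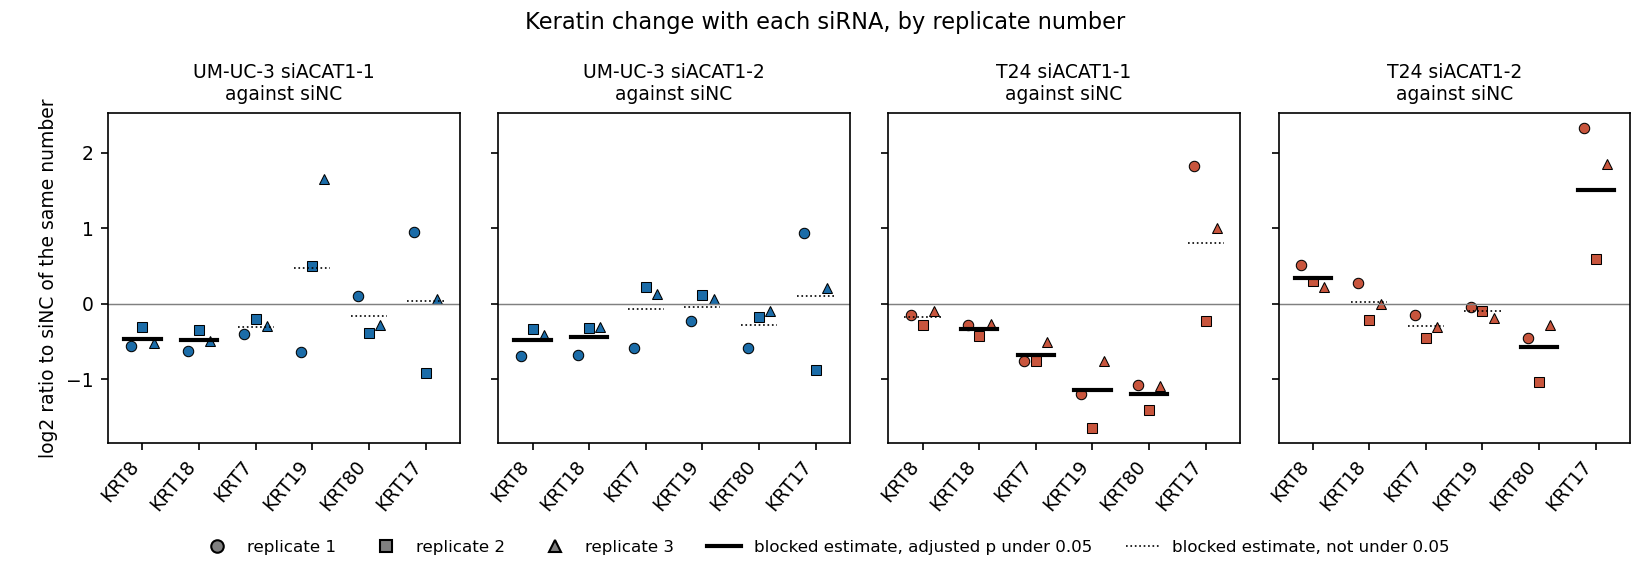
Log2 ratio of each siACAT1 library to the siNC library of the same line and number for the 6 tested keratins, 1 panel per line and siRNA, with a thick line at the estimate of the fit with the replicate block where it was called and a dotted line where it was not. KRT8 and KRT18 lie below 0 in both UM-UC-3 panels, and KRT7, KRT19 and KRT80 in both T24 panels.

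Over both siRNAs and both lines, 0 of 6 keratins were called by edgeR without a block, against 0.223% of all genes, and 0 by DESeq2 or at an unadjusted p under 0.05. With the block 4 of 6 were lower, against 12.4% of all genes called (6.46% lower): KRT7 by a log2 fold change of -0.33 (SE 0.08, edgeR adjusted p = 0.00827), KRT8 by -0.19 (0.06, 0.0469), KRT18 by -0.31 (0.06, 0.00416) and KRT80 by -0.55 (0.10, 0.0016). KRT18 and KRT80 held in each of 18 fits that left out 1 library, KRT7 in 17 (lost without UM-UC-3 siNC replicate 1, adjusted p = 0.0682) and KRT8 in 3. The contrast of the knockdown effects of both lines called 0 of 6 keratins both without the block (0% of all genes) and with it (0.104%), where 3 had an unadjusted p under 0.05. The lowest adjusted p of the 6 was that of KRT8, at a log2 difference of -0.56 in UM-UC-3 minus T24 with the block (interval -0.80 to -0.31, edgeR adjusted p = 0.0846). Between the siRNAs over both lines 0 were called without the block (2.56% of all genes), also by DESeq2 or at an unadjusted p under 0.05, and 2 with it, both higher with siACAT1-2 (20.6% of all genes called, 10.4% higher). KRT7 was higher with siACAT1-2 by 0.31 (edgeR adjusted p = 0.0212) and KRT8 by 0.25 (0.0164) on the log2 scale. Leaving out 1 library, the call of KRT7 held in 12 of 18 fits (adjusted p up to 0.092) and that of KRT8 in 13 (up to 0.0638), and without the 3 UM-UC-3 libraries numbered 3 neither was called.

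Among the other type I keratins, KRT15 rose in T24 cells with the block, by 1.25 on the log2 scale with siACAT1-1 (edgeR adjusted p = 5.9e-04) and by 1.16 with siACAT1-2 (0.00143). It had 194, 90 and 319 reads with siNC, 669, 120 and 598 with siACAT1-1 and 584, 144 and 660 with siACAT1-2. KRT34 also rose, by 1.73 with each siRNA. In the same fit, the anchor gene DSG2 rose with siACAT1-2 in both lines, by 0.68 in UM-UC-3 (edgeR adjusted p = 0.0206) and 0.61 in T24 (0.00589), and 5 of 15 were called in T24 with siACAT1-1, 2 higher and 3 lower, against 13.9% of all genes. Of the regulators, the retinoic acid receptor RARG fell with siACAT1-1 by 1.22 in T24 (edgeR adjusted p = 8.0e-04) and by 0.93 in UM-UC-3 (0.0135), while with siACAT1-2 it was at 0.36 and 0.12, not called. None of these passed without the block.

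KRT8 and KRT18 varied together within each line. Over the 9 libraries of a line the Pearson correlation of their log2 CPM was 0.991 in UM-UC-3 and 0.972 in T24, where the libraries share replicate numbers and the genes share exon bases. KRT7 went with KRT8 in T24 (r = 0.93) but less in UM-UC-3 (0.165), where it went with KRT17 (0.842, against -0.0502 in T24). After the mean of each line was taken off, over 18 libraries, the genes most like KRT8 were KRT18 (r = 0.966), CHD1L (0.951) and MT-TI (0.946), and those most like KRT18 were KRT8, CNTROB (0.946) and MT-TI (0.935). Those nearest to KRT7 were its antisense neighbour RP3-416H24.1 (0.983), EPB41L4A (0.953) and RPL3 (0.912). For KRT19 they were PIF1 (0.939), PYGL (0.926) and C8orf58 (0.917), for KRT80 PRR11 (0.926), CCNB2 (0.912) and HYLS1 (0.9), and for KRT17 DAP3 (0.841), SH3GLB1 (0.84) and RIPK2 (0.816). These values describe the libraries and were not tested.

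**Figure D5:**
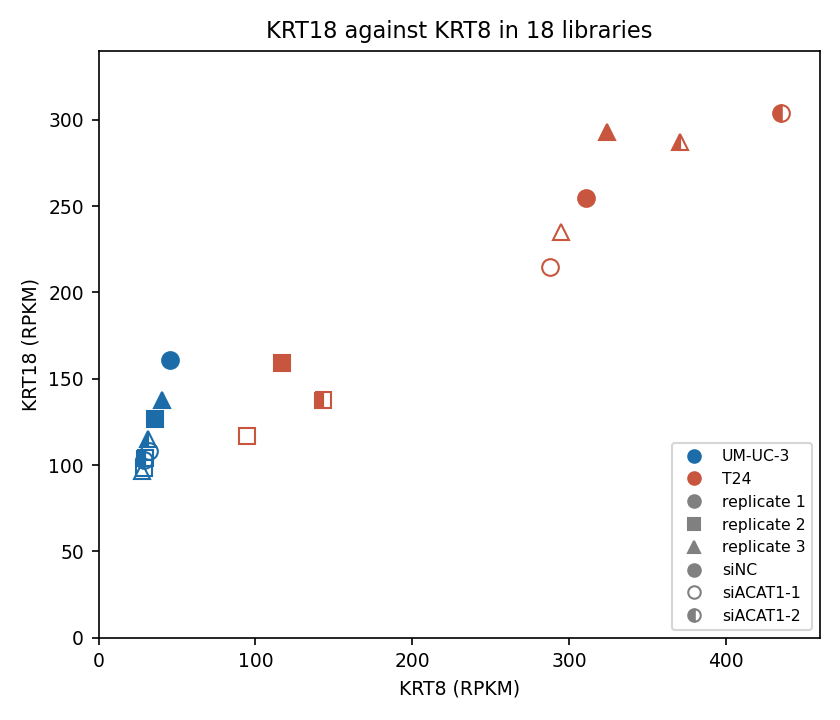
KRT18 against KRT8 in RPKM for the 18 libraries, UM-UC-3 in blue and T24 in red. The UM-UC-3 libraries lie at KRT8 from 27.8 to 45.2 and KRT18 from 96.6 to 161 RPKM, and the T24 libraries at KRT8 from 94.7 to 435 and KRT18 from 117 to 304 RPKM.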

How the data were processed

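The 18 RNA-seq libraries (3 for each line and siRNA) were prepared with a stranded mRNA kit carrying 8-base molecular identifiers. Per the submitters' processing notes the authors used Trimmomatic 0.36, STAR 2.5.3, featureCounts (Subread 1.5.1) and GRCh38. The annotation release, the strand setting, the treatment of multi-mapping reads and the collapse of identifiers are not given in the sources used here. The authors deposited raw read counts per gene and RPKM values, and these RPKM equalled counts scaled by gene length and total (largest relative difference 6.4e-07). Of counts from 1 to 10, 74.4% were even, so mates of a pair may be counted separately. The level still possible for a gene without reads covers counting error only. The intervals given with fold changes were built from the standard errors of the fits, which include the spread between libraries.

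The quasi-likelihood test of edgeR 4.0.16 (R 4.3.3) was applied to the deposited counts after filterByExpr by group and TMM scaling. A single fit took in every library and estimated 1 coefficient per group. Benjamini-Hochberg adjustment ran over the 20144 genes tested, separately for each contrast, and calls were made under an adjusted p of 0.05. DESeq2 1.42.0 was an alternative, as were the fit without the filter, with only the groups compared, with the replicate number as a block, and leaving out libraries. RPKM per library are given as mean ± SD over 3 libraries. Python 3.11.15 and pandas 2.3.3 were used for tables.

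Whether replicate numbers pair the libraries was checked first. Libraries with equal numbers deviated together from their group means in all 9 pairs within UM-UC-3 cells (r 0.115 to 0.576) and in all 9 within T24 cells (0.356 to 0.686). Other numbers within a line gave r of -0.545 to 0.269 in UM-UC-3, which overlapped equal numbers, and -0.567 to 0.21 in T24. Taking off the mean of 3 libraries ties these values to each other. Equal numbers across the lines gave -0.327 to 0.211. The numbers were taken as pairs within a line. What a number marks is not said in the labels, and the p-values measure the spread between these libraries. The block was the number within a line. For the contrast of the lines, where equal numbers did not pair, a block of the number shared by both was run as an alternative only.

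The keratins and the gene lists were chosen with earlier results of these data known. The text names all keratins of the set, ACAT1, up to 4 genes of each other list by the lowest adjusted p between the lines or by a call against siNC, antisense genes and pseudogenes of the set, and the 3 genes most like each tested keratin in log2 CPM. Fits without the 3 T24 libraries numbered 2 or the 3 UM-UC-3 libraries numbered 3, and fits leaving out libraries with the block, were chosen after seeing the data.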

Additional observations from a re-analysis of the deposited data

How the results depend on the processing

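The call counts of the 6 keratins depended on the replicate block. In UM-UC-3 the block called 2 with siACAT1-1 and 2 with siACAT1-2, in T24 4 and 3, over the mean of the 4 comparisons 4 and between the siRNAs 2, against 0 in each without it, and it changed no call in the contrast of the knockdown effects of both lines. In the comparison of the lines 3 were called (8924 of all genes). KRT18 and KRT80 made it 5 without the filter on low counts (8957 of all genes) and 5 without the T24 libraries numbered 2 (8974), and KRT17 (-2.03) and KRT18 (-0.93) made it 5 with the mean over the 3 siRNA groups (13310). With the block it was also 5 (9655), with KRT18 at -0.65 (edgeR adjusted p = 0.0364) and KRT80 at -0.75 (0.0409), but that block uses a number shared by both lines, and equal numbers did not deviate together across the lines (r -0.327 to 0.211, median -0.0622, against a median of 0.0392 for other numbers). Leaving out 1 library at a time gave 3 to 4 in that comparison and 0 to 0 in all 7 knockdown contrasts. Without the filter 2 were called in T24 with siACAT1-1, both lower: KRT19 (edgeR adjusted p = 0.0106) and KRT80 (-1.16, edgeR adjusted p = 0.00485). Without the block, 34 recomputed log2 fold changes of single keratins took the other sign, 0 of them called in either fit. Among these was KRT8 in T24 with siACAT1-2, at 0.37 and not called without the block, which went to -0.02 without T24 siNC replicate 2. KRT17 in UM-UC-3 went from -0.74 to 0.82 with siACAT1-1 and from -0.71 to 0.91 with siACAT1-2 when 1 library was left out, at the lowest without replicate 3 of the siRNA and at the highest without siNC replicate 3, and in the comparison of the lines from -2.06 to -0.89.

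Counts over all genes moved too. For UM-UC-3 siACAT1-1, UM-UC-3 siACAT1-2, T24 siACAT1-1, T24 siACAT1-2, the mean of the 4 and the siRNA difference, the fit called 2, 11, 25, 54, 45 and 515 genes. The block called 617, 273, 2799, 1708, 2500 and 4141, no filter 167, 58, 463, 180, 383 and 884, and DESeq2 18, 37, 393, 251, 315 and 1298. Only the groups compared called 2, 2, 1 and 1 in the 4 comparisons with siNC and 235 between the siRNAs. Without the T24 libraries numbered 2 the counts were 2, 22, 593, 140, 436 and 1401, and without the UM-UC-3 libraries numbered 3 they were 2, 3, 7, 34, 8 and 166. The contrast of the knockdown effects called 0 genes, 21 with the block, 29 without the filter, 1 with DESeq2 and 3 without the T24 libraries numbered 2. The cause of these differences was not tested.

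Depth limits KRT5, KRT6A, KRT13 and KRT17, whose reads were too few for a firm statement in either line.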

Other observations

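Some other intermediate filament genes were called under knockdown in the fit with the replicate block. Of 9 tested, 3 were lower with siACAT1-1 in UM-UC-3 and 3 in T24, against 3.06% and 13.9% of all genes called. With siACAT1-2, 1 was lower in each line, against 1.36% and 8.48%, and 0 were higher in any of the 4. VIM fell with siACAT1-1 by 0.46 on the log2 scale in UM-UC-3 (edgeR adjusted p = 0.0452) and by 0.49 in T24 (0.0107), while with siACAT1-2 it was at 0.04 and 0.37 (0.0653), not called. The lamin gene LMNB2 fell with siACAT1-1 by 0.78 in UM-UC-3 (edgeR adjusted p = 0.0217) and by 1.17 in T24 (3.4e-04). With siACAT1-2 LMNB2 was at -0.42 in UM-UC-3 and -0.48 in T24, not called. LMNB1 fell with siACAT1-2 by 0.89 in UM-UC-3 (edgeR adjusted p = 0.00152) and by 1.15 in T24 (4.3e-05). It also fell with siACAT1-1 in T24, by 0.46 (edgeR adjusted p = 0.0306), and was at -0.45 in UM-UC-3 (0.0743), not called. None passed without the block, and LMNB1 had 8781, 931 and 5479 reads in T24 siNC replicates 1, 2 and 3, a spread between numbers larger than its change with either siRNA.

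S100A2, the basal and squamous calcium-binding protein, fell in T24 cells with the block, by 1.30 on the log2 scale with siACAT1-1 (edgeR adjusted p = 1.2e-04) and by 0.61 with siACAT1-2 (0.0279). It was 63.8 ± 17.2 RPKM with siNC, 25.3 ± 7.04 with siACAT1-1 and 43.2 ± 20 with siACAT1-2 (n = 3 each). In UM-UC-3 cells it was 1.98 ± 0.528, 1.63 ± 0.466 and 1.85 ± 0.32 RPKM.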
